A study of Mus musculus with 36 samples.

Results

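The brains of Ndufs4-knockout mice given the complex I inhibitor CP2 were compared with the brains of wild-type mice given vehicle, to list what still separated the treated knockout from the normal brain. The comparison used the 8 samples of 36 whose titles carry the letter M and either the knockout genotype with CP2 (KO CP2 M, 5 samples named L266, L291, L292, L298 and L299) or the wild-type genotype with vehicle (WT vehicle M, 3 samples named L285, L300 and L303). Mice of both groups were 37 to 45 days old and had been gavaged for 3 days. The tissue label reads brain in each sample, while the design text names hippocampus and cortex, so the mix of regions in a sample is not known. Strain, the vehicle, the dose and the way the knockout allele was made are not given in the sources used here. The groups differ in genotype and in treatment together, so within this comparison the 2 cannot be told apart. The KO vehicle M (3 samples) and WT CP2 M (5 samples) groups are therefore given beside the results. The same comparison in mice with the letter F (5 KO CP2 F and 5 WT vehicle F samples) shares no sample with it.

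Complex I passes electrons from NADH into the respiratory chain and pumps protons across the inner mitochondrial membrane. NDUFS4 is an accessory subunit needed for its assembly and stability, and mice without it develop a Leigh-like encephalopathy with gliosis and microglial activation in defined brain regions. CP2 lowers complex I activity without abolishing it.

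Several libraries stood apart before any gene was tested. The gene ENSMUSG00000119584, which has no symbol in the name table, took 1.01% of counts in L266 and 4.79% to 5.87% in the other KO CP2 M samples. Among WT vehicle M samples it took 1.60% in L303, 3.26% in L300 and 3.90% in L285, and among the 20 F samples at most 3.20%. L291 had 47.2 CPM (counts per 1000000) of Xist, the RNA that silences an X chromosome in female cells, where the other M samples had at most 0.833 CPM and F samples at least 438 CPM. Its Y-linked Ddx3y was 80.8 CPM, within the 61.8 to 84.4 CPM of all M samples. Reads placed outside annotated genes made up 5.18% to 9.06% of reads in KO CP2 M (7.33% ± 1.40, SD, n = 5) and 9.48% to 11.6% in WT vehicle M (10.2% ± 1.22, SD, n = 3), without overlap (exact two-sided permutation test, p = 0.0357, adjusted over 4 tests 0.0714; the smallest p that 5 against 3 samples allow is 0.0179). Reads with several matches made up 4.85% to 5.58% of reads in KO CP2 M and 4.05% to 4.44% in WT vehicle M, also without overlap. TMM scaling factors of the libraries were 0.9484 to 0.9907 in KO CP2 M and 1.022 to 1.043 in WT vehicle M, again without overlap. Neither measure was tested. Reads counted in genes ran from 56576206 to 88559920 in KO CP2 M and from 49518858 to 57342913 in WT vehicle M. In the bulk tissue, fewer cells of a type and less RNA per cell cannot be told apart.

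Ndufs4 (ENSMUSG00000021764) was detected at 39.1, 35.8, 36.9, 29.6 and 36.7 CPM in L266, L291, L292, L298 and L299, and at 44.9, 50.1 and 38.9 CPM in L285, L300 and L303. The groups overlapped through L266 and L303, and 4 of the 5 knockout samples lay below all wild-type samples. The log2 fold change was -0.32 (SE 0.097), with an adjusted p of 0.0617 in the edgeR quasi-likelihood test. The exact permutation test on log2 CPM gave p = 0.0357 (two-sided, adjusted 0.0714). KO vehicle M samples had 28.2 ± 1.19 CPM (SD, n = 3), WT CP2 M samples 45.2 ± 2.44 CPM (SD, n = 5), and in F the fall from WT vehicle to KO CP2 was larger (log2 fold change -0.59, edgeR adjusted p = 0.000148), though the difference between the letters was not called (adjusted p = 0.411). Because reads are summed over all exons, the deleted part of the gene cannot be read separately, and the genotype is checked only as a lower total.

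Of 25601 genes tested, 618 differed between KO CP2 M and WT vehicle M at an adjusted p under 0.05 in edgeR, which is the threshold for every gene called higher or lower here. Of these, 47.1% were higher (1.14% of genes tested) and the other 327 genes were lower (1.28%). The counts of called members in each list below are to be read beside these shares. The median absolute log2 fold change of the called genes was 0.50, and 560 of them did not overlap between the groups' samples, against 3278 of all genes (12.8%). The calls came from a test on these same samples, so a high share without overlap follows largely from the selection and is no separate evidence. Called genes that were lower had a noncoding annotation in 16.2% of cases and a median longest transcript of 3802 bases, while those that were higher had 3.46% and 2514 bases and all tested genes 23.8% and 2653 bases. Among protein-coding genes alone, these lengths were 4134, 2640 and 3276 bases. The sets also differed in level, with a median of 25.2 CPM for lower, 57 CPM for higher and 3.6 CPM for all tested genes. The count rested on a few libraries: it was 52 without L303, 229 without L285, 356 without L300, 302 without L292, 348 without L299, 375 without L266, 488 without L291 and 744 without L298. Without L266 and L303 together, 21 genes were called, all of them among the 618.

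**Figure D1:**
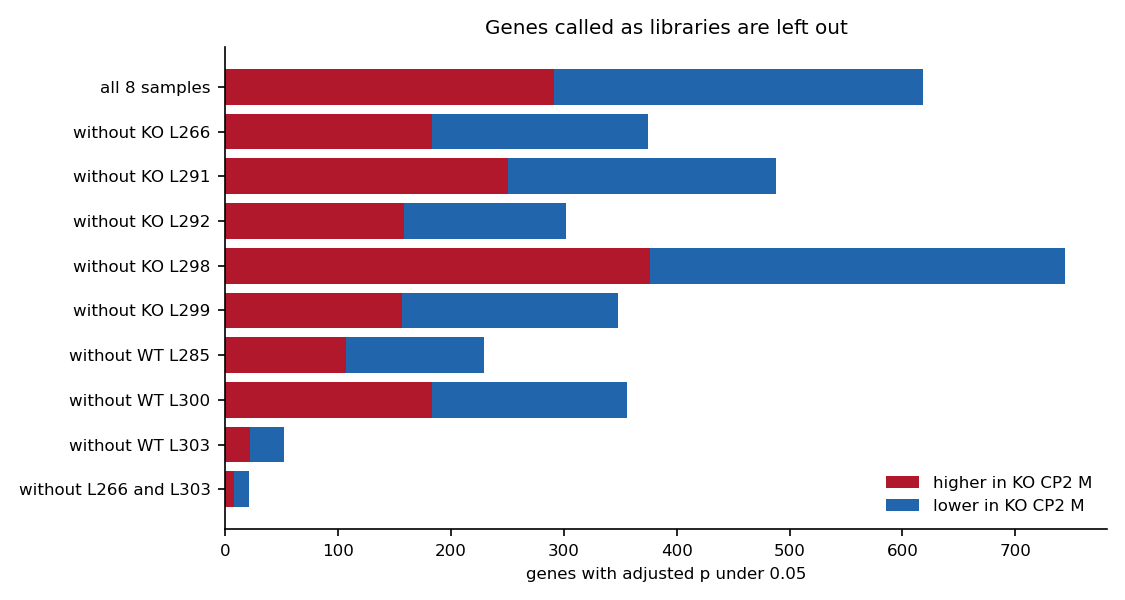
Number of genes with an adjusted p under 0.05 (x axis) when all 8 samples were used and when libraries were left out, with genes higher in KO CP2 M in red and lower in blue. The bar for all samples reaches 618 genes, that without L303 reaches 52 and that without both L266 and L303 reaches 21.

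Some genes of microglia, the resident macrophages of the brain, were higher in the treated knockout, while several of their usual markers did not pass the test. Mpeg1, which encodes the pore-forming protein perforin-2 of macrophages, had 48.7, 39.1, 45.6, 50.0 and 54.3 CPM in L266, L291, L292, L298 and L299 against 23.3, 28.4 and 25 CPM in L285, L300 and L303. The lowest knockout sample thus lay above the highest wild-type sample. Its log2 fold change was 0.90 (SE 0.123, edgeR adjusted p = 9.42e-05), and 0.87 (adjusted p = 0.00887) without L266 and L303. It was called in each of the 16 alternative fits made for single genes. The level in KO vehicle M was 35.7 ± 2.78 CPM (SD, n = 3) and in WT CP2 M 26.1 ± 2.98 CPM (SD, n = 5).

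Among 15 homeostatic microglia genes, 2 were called higher, 0 lower, and 9 did not overlap between groups, all of them higher (5.45% of all genes tested were higher without overlap). The list's median log2 fold change was 0.34, beside 0.01 over all genes. Ctss, encoding the lysosomal protease cathepsin S, had 79.9, 61.6, 72.7, 80.4 and 89.4 CPM in the treated knockouts against 43.5, 48.9 and 37.1 CPM. No sample of one group entered the range of the other (log2 fold change 0.83, SE 0.137, edgeR adjusted p = 0.00141). P2ry12, a purinergic receptor of surveying microglia, had 37.4 to 51.6 CPM against 30.4 to 31.8 CPM and an adjusted p of 0.0555. Tmem119, another marker of resident microglia, had 21.4 to 26.7 CPM against 18.3 to 25.7 CPM, so the groups overlapped (adjusted p = 0.727). Without L285, L299, L300 or L303 the list held 1 call, and without L291 it held 5.

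Of 22 genes of the disease-associated microglial state, 3 were higher and 0 lower, with a median log2 fold change of 0.61. Among all genes tested, 1.14% were called higher. Clec7a, which encodes the beta-glucan receptor dectin-1, had 1.86, 1.17, 1.35, 1.42 and 1.92 CPM against 0.263, 0.273 and 0.445 CPM. Its log2 fold change of 2.23 (SE 0.498, edgeR adjusted p = 0.0108) was the largest among called genes with a symbol, a mean of at least 1 CPM and no overlap between groups. Itgax, encoding the integrin CD11c, was at 1.77, 0.474, 0.839, 1.55 and 1.12 CPM against 0.0188, 0.358 and 0.0387 CPM, so the groups did not overlap, at levels where few reads carry the value (log2 fold change 3.01, SE 0.758, adjusted p = 0.0239). Ccl6, a chemokine of myeloid cells, had 2.10 to 4.32 CPM against 0.891 to 1.23 CPM (log2 fold change 1.66, adjusted p = 0.0027). Apoe and Tyrobp of the same list were not called: Apoe overlapped at 1590 to 2230 CPM against 1270 to 2250 CPM, and Tyrobp had an adjusted p of 0.0502. Lair1, an inhibitory collagen receptor of leukocytes, was outside these lists and rose from 7.37, 7.47 and 9.45 CPM to between 11.1 and 13.6 CPM (log2 fold change 0.62, adjusted p = 0.0146). The 3 calls of the disease-associated list became 0 without L303, 1 without L285, 2 without L266 or L300 and 5 without L291.

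Complement, antigen presentation and interferon-stimulated genes each held 2 calls, all higher, where 1.14% of all genes tested were called higher. In the complement list 2 of 12 genes were higher and 0 lower (median 0.50), namely C1ra, a protease of the classical pathway, and C4b. C4b had 41.5, 61.4, 98.1, 47.7 and 78.0 CPM against 29.5, 26.2 and 28.2 CPM, a wide spread among treated knockouts in which every one lay above the wild type (log2 fold change 1.22, SE 0.322, edgeR adjusted p = 0.0374). C1ra had 1.66 to 3.73 CPM against 0.581 to 0.904 CPM (log2 fold change 1.75, adjusted p = 0.0154). In the antigen presentation list, 2 of 14 genes were higher and 0 lower (median 0.49): B2m, the light chain of class I molecules (75.9 to 90.9 CPM against 49.3 to 63.4 CPM, log2 fold change 0.54), and H2-K1, a class I heavy chain (32.8 to 44.5 CPM against 24.0 to 31.8 CPM, log2 fold change 0.44). Of 24 interferon-stimulated genes, 2 were higher and 0 lower (median 0.40). These were Lgals3bp, a secreted glycoprotein (21.1 to 31.7 CPM against 17.8 to 18.7 CPM, log2 fold change 0.61), and Ifit2, which binds foreign RNA (14.3 to 19.8 CPM against 11 to 12.9 CPM, log2 fold change 0.47). Complement calls became 0 without L285 or L303 and 1 without L292, L299 or L300, and C4b kept its call in 5 of 16 alternative fits. Antigen presentation calls became 0 without L303 and 1 without L285, L292, L298 or L299. Interferon-stimulated calls became 0 without L303 and 1 without L285, L291, L292, L299 or L300. The list of T cells, neutrophils and macrophages summed to 22.4 to 32.7 CPM in KO CP2 M and 26.6 to 30.9 CPM in WT vehicle M. Its members are not limited to blood-borne cells, since Adam8 is also a gene of microglia. In that list 0 of 11 genes were higher and 2 lower (Adam8 and Dok3, described further on), and its median log2 fold change was 0.35, near that of the homeostatic microglia list.

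Reactive astrocyte genes had the highest median of the 26 gene lists (0.79 over 18 genes). In this list 1 gene was called higher and 0 lower, where 1.14% of all genes tested were called higher. Cd109, a co-receptor that dampens TGF-beta signalling, was the gene called: 4.26, 7.17, 6.46, 5.42 and 7.44 CPM against 2.10, 1.25 and 4.69 CPM. L266 and L303 overlapped, and the log2 fold change was 1.2 (SE 0.296, edgeR adjusted p = 0.0213). Gfap, the intermediate filament of reactive astrocytes, had 787, 550, 1730, 646 and 1330 CPM in the treated knockouts and 326, 326 and 334 CPM in the wild type. Each treated knockout lay above each wild-type sample, yet L292 and L299 stood far above the other 3, and the adjusted p was 0.09 (log2 fold change 1.62, SE 0.507). The same 2 samples were highest for Serpina3n, an acute-phase protease inhibitor (113 and 79.7 CPM, the other treated knockouts 26.5 to 36.4 CPM, wild type 14.7 to 19.4 CPM, adjusted p = 0.0998). They were also highest for Vim, a filament protein shared with vessels (189 and 126 CPM, the others 77.3 to 84.5 CPM, wild type 44.8 to 53.0 CPM, adjusted p = 0.0917). S100a6, a calcium-binding protein, did pass the test at 43.4 and 31.2 CPM in these samples, 16.5 to 17.4 CPM in the other treated knockouts and 8.27 to 10.4 CPM in the wild type (log2 fold change 1.45, adjusted p = 0.0374). S100a6 kept that call in 6 of 16 alternative fits. The call of Cd109 was lost without L285, L299 or L300. Of the astrocyte identity list 0 of 14 genes were higher and 0 lower (median 0.18). Their summed level still did not overlap (7960 to 9020 CPM against 7330 to 7880 CPM). At an unadjusted p under 0.05 in edgeR, 5 of them were higher, beside 7.48% of all genes tested.

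**Figure D2:**
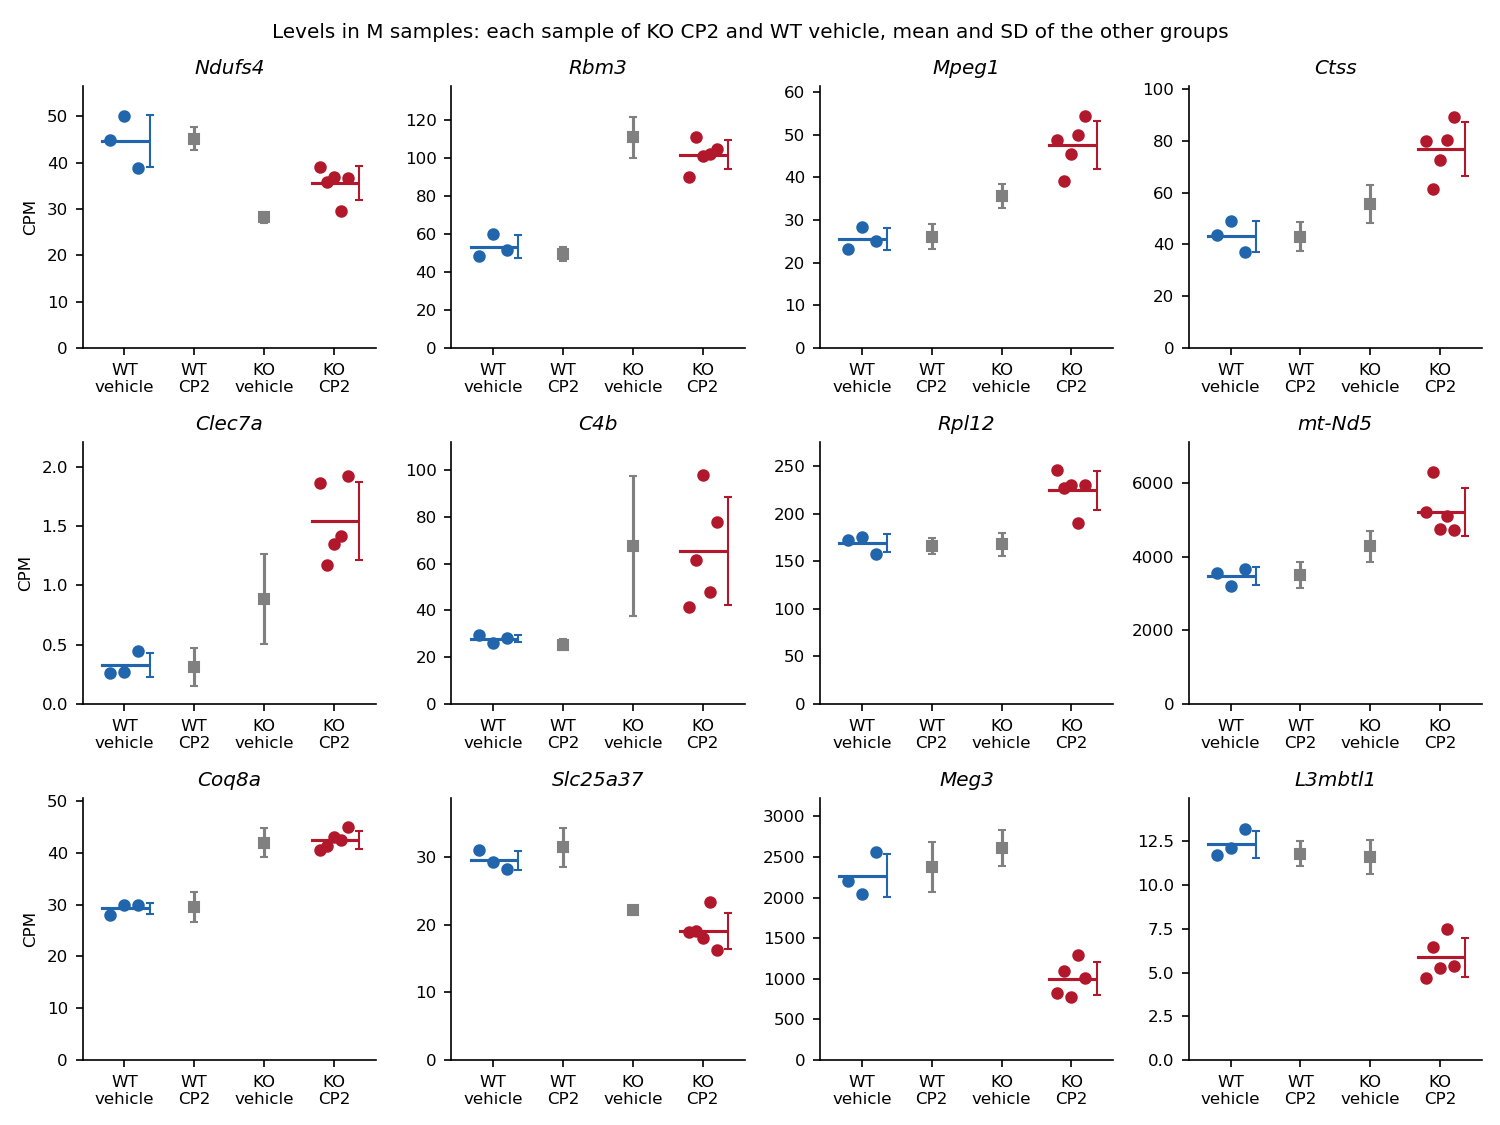
CPM on axes starting at 0 for 12 genes in M samples: points are the 3 WT vehicle samples (blue) and 5 KO CP2 samples (red), horizontal lines their means and bars 1 SD, and grey squares with bars are mean and SD of WT CP2 (n = 5) and KO vehicle (n = 3). Rbm3, Mpeg1, Ctss, Clec7a, C4b, Rpl12, mt-Nd5 and Coq8a are higher and Slc25a37, Meg3 and L3mbtl1 lower in KO CP2 without overlap with WT vehicle, while Ndufs4 overlaps.

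The most uniform group was that of the cytosolic ribosomal proteins, which build the subunits that translate messenger RNA. Of 44 listed genes 32 were higher and 0 lower, and all 44 had a positive log2 fold change at an unadjusted p under 0.05, which 7.48% of all genes tested reached in that direction. The median was 0.37 with a range of 0.26 to 0.65. Taking all 82 protein-coding genes with ribosomal protein symbols, a set defined after the values were seen, 56 were higher and 0 lower. Ribosomal protein genes have many near-identical processed copies, so counts of single members depend on how reads with several matches were treated.

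Messenger RNAs of ribosomal proteins are known for a tract of pyrimidines at their 5′ end, through which mTOR signalling controls their translation, so the start sites of members that rose are shown. In RefSeq's promoter table (GRCm38.p6), 32 of the 44 genes had an entry. The window from 15 bases before to 15 bases after the annotated start was searched on the gene's strand for its longest unbroken run of C and T, a search chosen after the counts were known. A run of at least 7 was present in 17 of these 32 genes (53.1%) and in 3295 of 14782 tested genes with an entry (22.3%). For a gene with several entries, the entry with the longest run was used. Members on an excluded chromosome were not considered for display. Of the remaining called members, the 5 with the longest run are shown with that run in capitals. The annotated start is base 16 of each window, so the runs of Rpl35, Rpl15 and Rpl14 span it, while those of Rpl19 and Rpl4 end before it and lie outside the annotated messenger RNA:
Rpl35 (chr2:39005117-39005146, minus strand): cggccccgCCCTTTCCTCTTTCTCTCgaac
Rpl15 (chr14:18270972-18271001, minus strand): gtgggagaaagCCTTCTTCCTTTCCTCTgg
Rpl14 (chr9:120571502-120571531, plus strand): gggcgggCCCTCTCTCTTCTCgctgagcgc
Rpl19 (chr11:98026909-98026938, plus strand): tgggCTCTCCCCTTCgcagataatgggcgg
Rpl4 (chr9:64173372-64173401, plus strand): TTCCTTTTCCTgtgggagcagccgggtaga

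Rpl12, a protein of the stalk base of the large subunit, had 246.1, 227.1, 230.4, 189.7 and 230.4 CPM against 172.5, 176.1 and 157.7 CPM. L298 was the lowest of the treated knockouts and still above the wild type (log2 fold change 0.41, SE 0.069, edgeR adjusted p = 0.00141). Rps4x, of the small subunit, had 260.5, 253.9, 246.9, 224.4 and 266.5 CPM against 188.7, 207.5 and 186 CPM, again without overlap (log2 fold change 0.37, adjusted p = 0.00226). Rpl32 had 171, 171, 152, 133 and 164 CPM against 120, 121 and 89.5 CPM (log2 fold change 0.52, adjusted p = 0.00252). Of the genes printed with their start sites, Rpl35 overlapped between groups (104 to 136 CPM against 73.3 to 107 CPM, log2 fold change 0.38, adjusted p = 0.0475). Rpl4 did not overlap (455 to 523 CPM against 388 to 421 CPM, log2 fold change 0.28, adjusted p = 0.00918). Eef1a1, the elongation factor that brings transfer RNA to the ribosome, was named after its values were seen and had 2370 to 2660 CPM against 1960 to 2070 CPM (log2 fold change 0.33, adjusted p = 0.00619).

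In the 8 samples compared, the ribosomal level moved with the share of reads outside genes. Across the list, mean log2 CPM was 7.69, 7.63, 7.61 and 7.69 in L266, L291, L292 and L299, whose outside share was 5.18% to 7.80%. It was 7.30 in L298 at 9.06% outside genes, and 7.27, 7.34 and 6.94 in L285, L300 and L303 at 9.55%, 9.48% and 11.6%. L298, the treated knockout nearest to the wild type in outside share, lay between L285 and L300 in ribosomal level. KO vehicle M samples lay at 7.09 to 7.23 and WT CP2 M samples at no more than 7.33, with 9.05% to 13.2% outside genes in both. The 20 F samples lay at 7.41 to 7.69 whatever their genotype or treatment, with up to 11.7% outside genes. With the outside share as a covariate, 14 of the 44 genes were called (median 0.34), without L303 alone 1 gene, and without L266 and L303 0 genes (median 0.25).

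**Figure D3:**
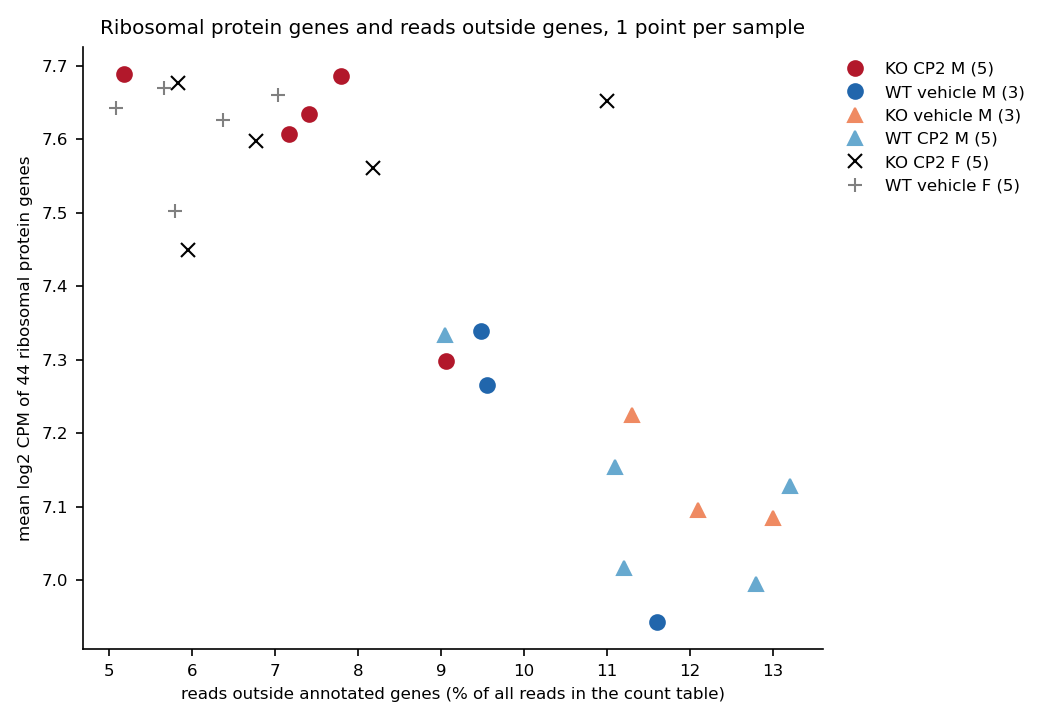
Mean log2 CPM of the 44 ribosomal protein genes (y axis) against reads outside annotated genes in % of all reads in the count table (x axis), 1 point per sample, for the 4 M groups and for KO CP2 F and WT vehicle F. Of the KO CP2 M samples, 4 lie above 7.6, in the range of the F samples, and L298 at 7.30 lies between the WT vehicle M samples L285 and L300.

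Genes for proteins encoded in mitochondrial DNA, the core subunits of complexes I, III, IV and V, were higher in 6 of 13 cases and lower in 0 (median 0.49), and 10 were higher without overlap, beside 5.45% of all genes. mt-Nd5, a proton-pumping subunit of complex I, had 5210, 6320, 4770, 5100 and 4720 CPM against 3550, 3200 and 3680 CPM. The ranges stayed apart, with L291 the highest (log2 fold change 0.59, SE 0.112, edgeR adjusted p = 0.00291). mt-Nd6, the complex I subunit encoded on the opposite strand, had 1380, 1570, 1180, 1280 and 1200 CPM against 862, 768 and 875 CPM (log2 fold change 0.66, adjusted p = 0.00254). mt-Co1, the catalytic subunit of cytochrome c oxidase, had 17500 to 21300 CPM against 13200 to 14300 CPM (log2 fold change 0.49, adjusted p = 0.00581). mt-Cytb of complex III had 7230 to 8810 CPM against 5770 to 5870 CPM (log2 fold change 0.43, adjusted p = 0.0111), while mt-Nd2 overlapped at 2850 to 3590 CPM against 2820 to 3040 CPM (adjusted p = 0.699).

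The remaining called members, mt-Co2 (log2 fold change 0.64) and mt-Co3 (0.54), were listed at 11.1 to 24.2 CPM in the 8 samples. Reads with several matches are in a separate row of the table and not in the gene counts, and their part in the low values of mt-Co2, mt-Co3, mt-Nd3, mt-Nd4l, mt-Atp6 and mt-Atp8 was not tested. Without L266 and L303 the list kept a median of 0.43 with 0 genes called, without L303 alone 3 were called, and with the outside share as a covariate 5 (median 0.54). The KO vehicle M mean of mt-Nd5 was 4290 ± 428 CPM (SD, n = 3) and the WT CP2 M mean 3510 ± 354 CPM (SD, n = 5).

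Nuclear genes of the respiratory chain held few calls, with smaller shifts mostly in the same direction. Of 36 nuclear complex I genes 1 was higher and 0 lower (median 0.11), and of 36 genes of complexes II to V again 1 higher and 0 lower (median 0.17). The log2 fold change was positive in 31 of the complex I genes and in 35 of the others. At an unadjusted p under 0.05 in edgeR, 5 complex I genes were higher and 1 lower. Of the complex II to V genes, 11 were higher and 0 lower at that threshold, which 7.48% of all genes tested reached as higher. Ndufb9, a membrane-arm subunit of complex I, had 141, 124, 136, 106 and 142 CPM against 96.1, 107 and 76.5 CPM, with L298 just below L300 (log2 fold change 0.48, SE 0.101, edgeR adjusted p = 0.00677). Cox4i1, a nuclear subunit of cytochrome c oxidase, had 479 to 615 CPM against 349 to 482 CPM (log2 fold change 0.39, adjusted p = 0.0182). Ndufb9 lost its call without L303, and Cox4i1 without L299 or L303. Coq8a, an atypical kinase needed for making coenzyme Q, the electron acceptor of complex I, had 40.5, 41.4, 43.0, 42.6 and 45.1 CPM against 28.0, 30.0 and 29.9 CPM. Its groups were tight and far apart (log2 fold change 0.54, SE 0.105, adjusted p = 0.00359), and KO vehicle M stood at 42.0 ± 2.82 CPM (SD, n = 3) beside 29.6 ± 2.89 CPM in WT CP2 M (SD, n = 5).

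**Figure D4:**
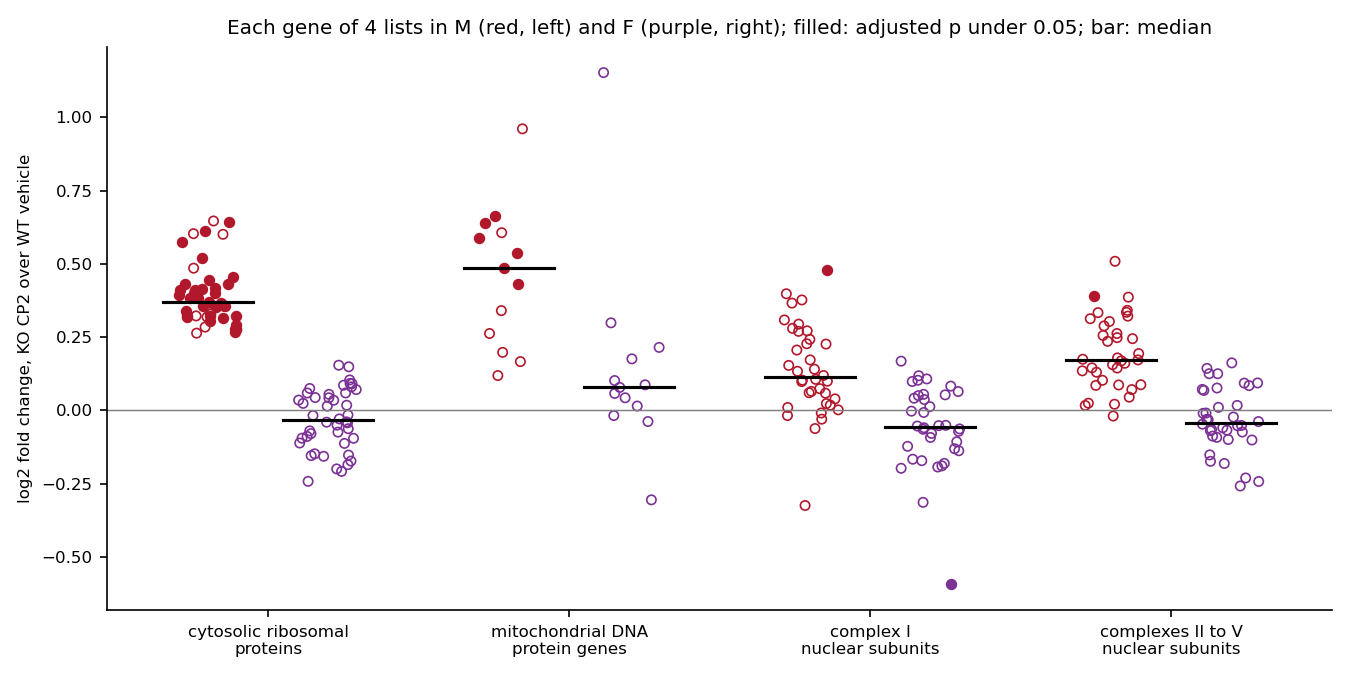
Log2 fold change of KO CP2 over WT vehicle for each gene of 4 lists, in M (red) and in F (purple), with filled points for adjusted p under 0.05 and a bar at the median. All 44 ribosomal protein genes lie above 0 in M around a median of 0.37, while in F they lie around -0.03.

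Lower genes with a role in mitochondria outside the chain included Slc25a37 and Rmnd1. Slc25a37, which encodes mitoferrin-1, an iron importer of the inner mitochondrial membrane, had 18.9, 19.0, 18.0, 23.3 and 16.2 CPM against 31.0, 29.3 and 28.2 CPM. The groups were clearly separate (log2 fold change -0.63, SE 0.107, edgeR adjusted p = 0.00141). The call held in each of the 16 alternative fits made for single genes, including that without L266 and L303 (adjusted p = 0.0261). Rmnd1, a protein of the inner membrane needed for mitochondrial translation, had 20.8, 15, 16.8, 15.8 and 14.8 CPM against 25.7, 23.6 and 22.4 CPM (log2 fold change -0.52, adjusted p = 0.0136), and its call was lost without L285 or L303. In KO vehicle M Slc25a37 was at 22.1 ± 0.613 CPM and Rmnd1 at 17.6 ± 2.37 CPM (SD, n = 3).

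The stress programmes known from respiratory chain disease passed the test in few genes. Of 22 genes of the ATF4 stress response 0 were higher and 0 lower (median -0.01), and likewise 0 and 0 of 22 glycolysis and lactate genes (median 0.02). Ddit4, an ATF4 target that restrains mTOR, overlapped at 36.6 to 54.0 CPM against 32.7 to 46.0 CPM, and Ldha, the muscle-type lactate dehydrogenase, at 191 to 225 CPM against 207 to 239 CPM. Of 14 NRF2 antioxidant genes 2 were higher and 0 lower (median 0.21): Nqo1, a quinone reductase (5.57 to 13 CPM against 3.14 to 5.83 CPM, log2 fold change 0.98, adjusted p = 0.0261), and Gsta4, which detoxifies lipid aldehydes (34.2 to 49.1 CPM against 25.3 to 35.9 CPM, log2 fold change 0.47, adjusted p = 0.0308). L298 lay within the wild-type range for both, and the list held 0 calls without L291, L292, L299 or L303 and 1 without L285 or L300. Of 20 heat shock and endoplasmic reticulum chaperone genes 0 were higher and 0 lower (median -0.13), although their summed level did not overlap (4960 to 5180 CPM against 5350 to 5820 CPM).

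Rbm3, a cold-inducible RNA-binding protein tied to translation and synapse maintenance, was among the genes called higher in both letters with the largest changes. It had 90.3, 111, 101, 102 and 105 CPM against 48.4, 60.0 and 51.7 CPM (log2 fold change 0.93, SE 0.196, edgeR adjusted p = 0.00918). The ranges were far apart, and the F value was close (0.95, adjusted p = 0.0045). The M call of Rbm3 was lost without L285, without L303, and without L266 and L303 together. KO vehicle M samples had 111 ± 10.7 CPM (SD, n = 3), a log2 difference of 1.06 from WT vehicle M, and WT CP2 M samples 49.7 ± 3.66 CPM (SD, n = 5). Cirbp, the related cold-inducible protein, was named after its values were seen: it had 67 to 83.3 CPM against 50.2 to 58.2 CPM and was not called in M (log2 fold change 0.53, adjusted p = 0.184), while in F it was higher (0.81, adjusted p = 0.0208).

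Neuronal lists held few calls. Of 16 excitatory and pan-neuronal genes 0 were higher and 1 lower (median 0.04). That gene, Nefm, the medium neurofilament chain of axons, fell from 270.8, 295.5 and 270.3 CPM to 203.9, 227.9, 198.3, 205 and 218.3 CPM, without overlap (log2 fold change -0.40, SE 0.112, edgeR adjusted p = 0.0423). Of 18 interneuron genes 1 was higher and 1 lower (median 0.05). Htr3a, the ionotropic serotonin receptor of superficial interneurons, had 8.71, 8.89, 6.65, 6.92 and 5.41 CPM against 3.64, 5.17 and 4.59 CPM (log2 fold change 0.71, adjusted p = 0.0272). Cort, the neuropeptide cortistatin of a subset of cortical and hippocampal interneurons, fell from 2.98, 4.55 and 3.70 CPM to 2.19, 0.967, 1.33, 1.33 and 1.27 CPM (log2 fold change -1.40, adjusted p = 0.0409). Bcan, the perineuronal proteoglycan brevican, was the only gene called among 10 of the oligodendrocyte precursor list and fell from between 301.1 and 323.1 CPM to between 219.2 and 256.9 CPM (log2 fold change -0.34, adjusted p = 0.00619). Leaving out 1 library ended the call of Bcan for L285, of Htr3a for L266, L285, L291 or L303, of Nefm for each library but L291, and of Cort for each but L266.

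Of 22 immediate early genes, which neurons switch on with activity, 0 were higher and 0 lower. The median was -0.46, and 10 did not overlap, 1 of them higher and the rest lower, beside 12.8% of all genes without overlap. Npas4, an activity-dependent transcription factor, had 6.51, 3.67, 4.81, 2.21 and 4.70 CPM against 11.3, 15.9 and 14.4 CPM (log2 fold change -1.66, SE 0.931, edgeR adjusted p = 0.434). Fos had 7.99 to 14.0 CPM against 16.1 to 28.4 CPM (adjusted p = 0.599). Fitted on only the groups compared, 0 of the list were higher and 4 lower (median -0.47), and without L266 and L303 the list held 0 calls. In KO vehicle M Npas4 was at 4.05 ± 1.29 CPM (SD, n = 3). The lists of 19 myelin, 32 glutamate and GABA-A receptor, 24 potassium channel, 16 clock, 18 histone, 19 cholesterol synthesis and 18 endothelial genes each held 0 genes higher and 0 lower, with medians of 0.09, -0.08, -0.11, -0.13, -0.03, 0.18 and 0.23. Of these lists, the endothelial genes had summed levels without overlap (547 to 633 CPM against 508 to 537 CPM).

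**Figure D5:**
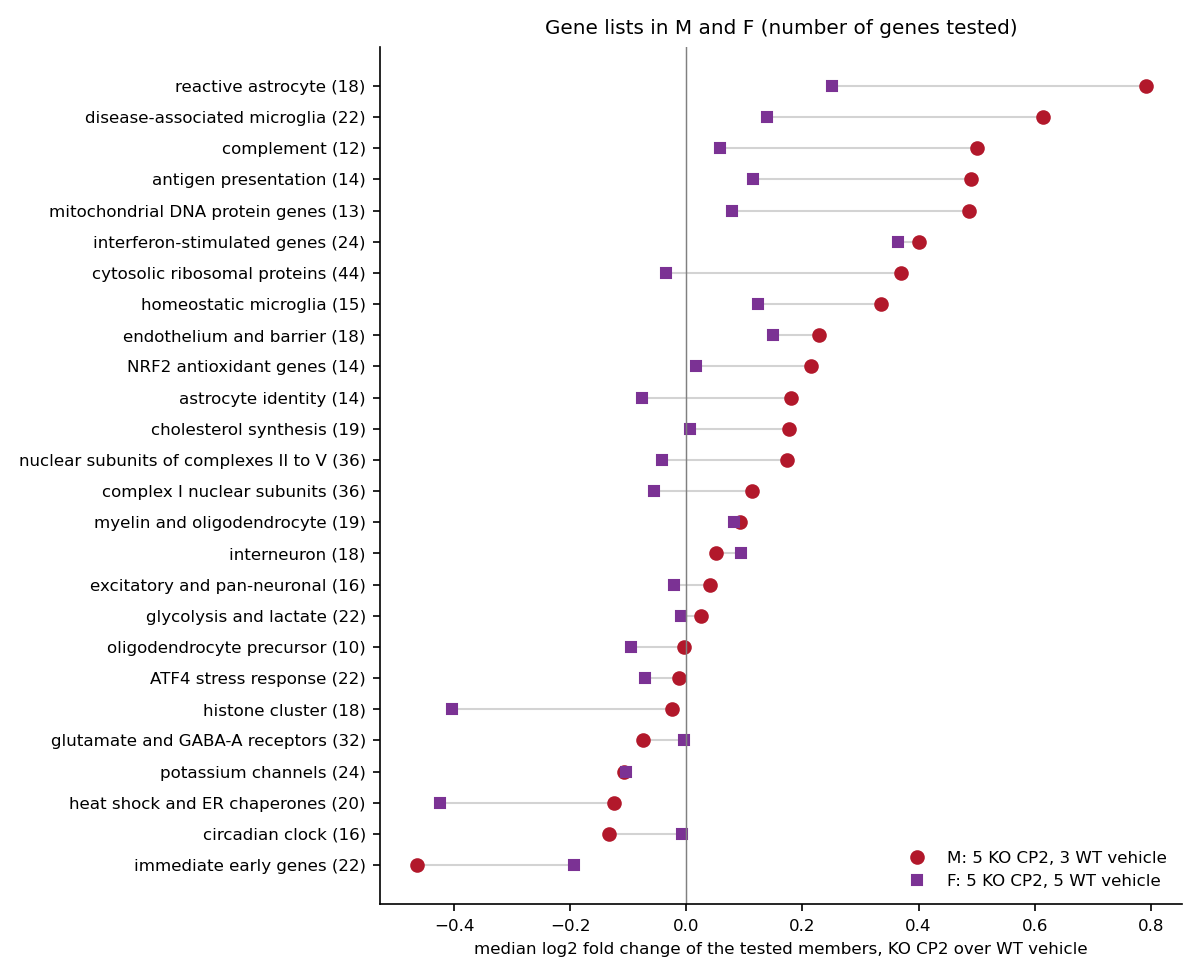
Median log2 fold change of KO CP2 over WT vehicle (x axis) for each gene list, in M (red circles) and in F (purple squares), with the number of genes tested in brackets. Reactive astrocyte genes have the highest median in M (0.79) and immediate early genes the lowest (-0.46), and the interferon-stimulated genes have nearly the same median in M (0.40) and F (0.37).

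Markers of regions and neighbouring tissues varied between samples. Hippocampal CA markers summed to 750 to 1020 CPM in KO CP2 M and 619 to 687 CPM in WT vehicle M, without overlap. They summed to 930 to 1000 CPM in KO vehicle M and 723 to 804 CPM in WT CP2 M. All other M groups thus lay above WT vehicle M, and the separation is not particular to KO CP2 M. Cortical layer markers summed to 727 to 820 CPM in KO CP2 M and 678 to 821 CPM in WT vehicle M. Thalamus markers also did not overlap but were lower, at 511 to 606 CPM against 647 to 758 CPM, with 0 of 10 genes called (median -0.34). Markers of meninges and fibroblasts summed to 1390 to 3160 CPM against 916 to 1520 CPM, with 0 of 10 genes called (median 0.60). Of 12 hippocampal CA genes 2 were higher and 0 lower: Nptx1, a secreted synaptic pentraxin, at 288.8 to 473.3 CPM against 226.3 to 299.1 CPM (log2 fold change 0.49, edgeR adjusted p = 0.03), and Man1a, a Golgi mannosidase, at 43.0 to 61.4 CPM against 35.6 to 40.5 CPM (log2 fold change 0.42, adjusted p = 0.0379). These 2 calls became 0 without L285, L292, L299, L300 or L303 and 1 without L291 or L298. Choroid plexus markers summed to 2380, 3850, 4150, 473 and 2950 CPM in L266, L291, L292, L298 and L299 and to 1190, 1740 and 1650 CPM in the wild type, with 0 of 12 genes higher and 0 lower (median 0.68). Wfikkn2, a secreted inhibitor of TGF-beta family ligands, took the same order among the treated knockouts, except that L291 lay above L292, with 9.43, 30.0, 23.8, 5.55 and 16.6 CPM against 3.24, 4.44 and 4.82 CPM (log2 fold change 2.04, adjusted p = 0.0385). In L298 it lay above the wild type while the choroid plexus sum lay below it, and the part of choroid plexus in its value was not tested. Hba-a1, a haemoglobin gene of red cells, had 9.45 to 77.1 CPM against 42.9 to 256 CPM (adjusted p = 0.138).

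By fold change, the list of called genes without overlap was led by genes at low levels. Besides Clec7a, Wfikkn2, C1ra, Ccl6 and S100a6, the 12 largest higher genes were Atp2c2, Tdgf1, Anxa8, Thbs4, Gm14569, Plb1 and Cela1, with log2 fold changes of 1.32 to 2.12. Of 16 alternative fits, the calls of these 12 genes were kept in between 5 (Tdgf1) and 14 (Atp2c2 and Ccl6), with Wfikkn2, Anxa8 and S100a6 at 6. Thbs4, a thrombospondin of the extracellular matrix made by astrocytes, had 15.6, 11.2, 21.2, 11 and 27.2 CPM against 4.16, 4.64 and 7.26 CPM (log2 fold change 1.69, SE 0.356, edgeR adjusted p = 0.00953). Atp2c2, a secretory pathway calcium pump, had 1.12 to 4.38 CPM against 0.503 to 0.694 CPM and was at 3.42 ± 1.34 CPM in KO vehicle M (SD, n = 3). The 12 largest lower genes were Ptprv, Pkd2l1, Gm14827, Dnase1l2, Plekhg4, Srrm4os, Gm43858, Gm45743, Adam8, Gm44769, 4930422M22Rik and Slc2a4rg-ps, with log2 fold changes of -2.28 to -1.55. Their calls were kept in between 5 (Ptprv and Gm44769) and 14 (Adam8) of the 16 fits, with Pkd2l1 at 8. Pkd2l1, the channel of neurons that contact cerebrospinal fluid, had 1.1, 1.0, 0.338, 0.511 and 0.760 CPM against 4.99, 2.90 and 2.09 CPM (log2 fold change -2.17, adjusted p = 0.0277). Adam8, a metalloprotease of leukocytes and microglia, had 0.456 to 1.02 CPM against 1.80 to 2.87 CPM (log2 fold change -1.62, adjusted p = 0.00373).

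Further lower genes were named after their values were seen, for their small p-values or their place beside Meg3. L3mbtl1, a chromatin reader of methylated histones, had 4.70, 6.48, 5.28, 7.52 and 5.35 CPM against 11.7, 12.1 and 13.2 CPM (log2 fold change -1.07, SE 0.143, edgeR adjusted p = 9.42e-05). Zgpat, a zinc finger repressor, had 24.9 to 30.9 CPM against 42.7 to 45.6 CPM (log2 fold change -0.61, adjusted p = 0.000246). Meg3, the noncoding RNA of the imprinted Dlk1-Dio3 region that stays largely in the nucleus, had 830, 1100, 780, 1290 and 1010 CPM against 2200, 2040 and 2560 CPM (log2 fold change -1.18, SE 0.242, adjusted p = 0.00838). Mirg and Rian, noncoding RNAs of the same region, had log2 fold changes of -1.33 (adjusted p = 0.00141) and -0.45 (adjusted p = 0.00213). None of the treated knockouts reached the wild-type range for these 5 genes.

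Meg3 and L3mbtl1 were also set against the other groups. Meg3 was at 2610 ± 219 CPM in KO vehicle M (SD, n = 3) and 2380 ± 309 CPM in WT CP2 M (SD, n = 5), near the wild type. In F it was at 1160 ± 378 CPM in KO CP2 and 1140 ± 254 CPM in WT vehicle (SD, n = 5 each), near KO CP2 M. L3mbtl1 likewise had 11.6 ± 0.967 and 11.8 ± 0.724 CPM in those M groups and 6.73 ± 0.655 and 8.07 ± 1.31 CPM in those F groups. Reads outside genes made up 7.54% ± 2.13 in KO CP2 F and 5.99% ± 0.74 in WT vehicle F, against 12.1% ± 0.885 in KO vehicle M and 11.5% ± 1.64 in WT CP2 M. For the outside share, the ribosomal protein genes, Meg3 and L3mbtl1, KO CP2 M means therefore lay nearer to the means of these F groups than to those of the other M groups. L298 was the exception for the ribosomal protein genes. Its outside share of 9.06% also lay nearer to the WT vehicle M mean of 10.2% than to the means of these F groups. The part of library preparation in these differences was not tested.

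The other M comparisons share samples with this one, so only their own values are set beside it. KO vehicle M differed from WT vehicle M in 132 genes (58 higher and 74 lower) and WT CP2 M from WT vehicle M in 0 genes by edgeR, with 777 at an unadjusted p under 0.05. KO CP2 M differed from KO vehicle M in 1307 genes and from WT CP2 M in 2560. The ribosomal median was -0.07 in KO vehicle M and -0.07 in WT CP2 M, each against WT vehicle M. For mitochondrial DNA genes the same medians were 0.19 and 0.10, for reactive astrocyte genes 0.44 and 0.03, for disease-associated microglia 0.14 and -0.06, and for interferon-stimulated genes 0.35 and -0.20. Immediate early genes had -0.62 and 0.36.

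In F, KO CP2 differed from WT vehicle in 321 genes, 128 of them higher (0.5% of genes tested) and 193 lower (0.754%). Called in both letters were 36 genes, 17 higher and 19 lower with 0 in opposite directions, which is 5.83% of the M genes and 11.2% of the F genes. Of the 618 M genes, 70.1% had the same sign in F. Across all genes the log2 fold changes in M and F were hardly related (Pearson's r = -0.0074, Spearman's rho = 0.046), a description over genes, which are not independent replicates.

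The genes called in both letters with the largest changes were Gm28578, Rbm3, Clec14a, Lair1, Mpeg1, Ccdc74a, Ifit2 and Coq8a among the higher and Cort, Dok3, 5830417I10Rik, Rnpep, Rmnd1, Plxna3, Ift172 and Slc25a37 among the lower. Dok3, an adaptor that restrains signalling in myeloid and B cells, had 2.63, 1.95, 3.32, 2.32 and 2.22 CPM against 5.42, 6.40 and 5.81 CPM in M (log2 fold change -1.24, SE 0.257, edgeR adjusted p = 0.00619). In F its mean was 1.73 ± 0.201 CPM in KO CP2 and 4.08 ± 1.03 CPM in WT vehicle (SD, n = 5 each, log2 fold change -1.24, adjusted p = 0.00529). Clec14a, a lectin of endothelial cells, had 8.23, 6.24, 8.63, 7.63 and 7.12 CPM against 4.54, 3.53 and 3.99 CPM (log2 fold change 0.91 in M and 0.91 in F). The M call of Clec14a was kept in 7 of 16 alternative fits. Ccdc74a, a coiled-coil protein, had 27.9 to 29.5 CPM against 15.6 to 18.3 CPM in M (log2 fold change 0.81, adjusted p = 0.00172), with 0.47 in F. Ift172, part of the transport machinery of cilia, had 42.7 to 47.6 CPM against 55.7 to 67.7 CPM (log2 fold change -0.41 in M and -0.46 in F).

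The difference between the M and F contrasts was itself tested, and 1 of 25601 genes was called (0.00391%), with 2990 at an unadjusted p under 0.05. That gene was Lhx2, a homeodomain factor of cortical and hippocampal development. In M it had 67.8, 58.9, 65.7, 61.3 and 56.7 CPM against 47.9, 54.3 and 49.7 CPM, and in F 50.6 ± 4.06 CPM in KO CP2 against 70.0 ± 6.74 CPM in WT vehicle (SD, n = 5 each). The M values lay higher than wild type without being called (log2 fold change 0.29, edgeR adjusted p = 0.127), the F values fell (-0.47, adjusted p = 0.00501), and the difference was 0.76 (SE 0.136, adjusted p = 0.0417). The call was kept in 10 of 26 alternative fits and lost in the other 16, which include RLE scaling, either covariate and the fit without L266 and L303. Of the 44 ribosomal protein genes, 43 had an M minus F difference above 0 at an unadjusted p under 0.05, where 5.24% of all genes had one, and 0 were called after adjustment. In F 0 of them were called (median -0.03), 0 of 13 mitochondrial DNA genes (median 0.08), and 0 of 22 disease-associated microglia genes (median 0.14). Of the 20 chaperone genes 0 were higher and 4 lower in F (median -0.42), where M had no call.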

How the data were processed

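PolyA-selected RNA from mouse brain was sequenced by the authors after Trizol-based extraction and TruSeq library preparation, per the labels' protocols. The deposited table holds raw read counts per Ensembl gene made by the authors, and the submitters' processing notes name STAR, HTSeq and GRCm39; annotation release and strandedness are not given in the sources used here, so overlapping and antisense genes are uncertain. The 5 summary rows were left out of library sizes and tests. The share outside genes is that row for reads without a gene over all rows. Symbols came from GENCODE M21 and matched 91.4% of identifiers, holding 97.2% of counts. The genome given here is of another build, so no gene coordinates in the files' build are printed; the promoter windows are in GRCm38.p6, from RefSeq.

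Counts were tested with edgeR 4.0.16 in R 4.3.3 (TMM, filterByExpr on 8 groups, robust quasi-likelihood fit with 28 residual degrees of freedom) over all 36 samples with a coefficient per group. Adjustment over the 25601 genes was by Benjamini and Hochberg. Levels are CPM on TMM library sizes; log2 CPM used a prior count of 2. Each standard error is the absolute log2 fold change over the root of its F statistic. Values set beside each other as groups of samples are in the order L266, L291, L292, L298, L299 and L285, L300, L303. Replicates come from different sample numbers, but the labels do not say that each is a separate animal; if some are not, the p-values measure only the spread between samples. No 2 samples of a group agreed within sampling noise (mean chi-square per gene at least 14.2). The functions were tested on simulated data, where changed genes at low levels were mostly missed.

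Genes named are Ndufs4, Xist, Ddx3y, the 12 higher and 12 lower with the largest change among called genes with a mean of at least 1 CPM and no overlap, the 8 higher and 8 lower called in both letters, up to 4 per list by smallest p, up to 4 each way for the difference between letters, and members or genes named as chosen after their values were seen. Members of a list given without being called were chosen after their values were seen, as familiar markers. The rule also names 2 genes that are not reported here. The comparison and all 26 gene lists and 14 marker lists were chosen with earlier results of these data known. Alternatives were RLE scaling, library size alone, DESeq2 1.42.0, no filter, only the groups compared, the outside share or ENSMUSG00000119584 as a covariate, a minimum fold of 1.2, and libraries left out. The minimum fold was applied to the counts over all genes and not to lists or single genes.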

Additional observations from a re-analysis of the deposited data

Results flagged for a closer look

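In the 5 KO CP2 M samples, 124 values were checked for a sample far from the others, and 8 had one; chance alone marks about 1 in 20 groups. Xist was 47.2 CPM in L291 against 0.0365 to 0.151 CPM in the others. Reads counted in genes, in units of 1000000, reached 88.6 in L292 against 56.6 to 64.1, and ENSMUSG00000119584 took 1.01% in L266 against 4.79% to 5.87%. The summed level of the ribosomal protein genes was 7900 CPM in L298 against 9450 to 10000 CPM, and that of the meningeal and fibroblast markers 3160 CPM in L291 against 1390 to 1650 CPM. Among genes at low levels, Gm45743 was 1.28 CPM in L298 against 0.29 to 0.49 CPM, Gm44769 was 0.326 CPM in L292 against 0.69 to 0.803 CPM, and 4930422M22Rik was 0.247 CPM in L266 against 0.652 to 0.744 CPM. Lhx2 was the gene whose contrast differed between the letters (log2 difference 0.76, edgeR adjusted p = 0.0417); it kept that call in 10 of 26 alternative fits.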

How the results depend on the processing

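The 618 genes of the M comparison became 605 with RLE scaling, 891 with library size alone, 413 without a filter and 483 with ENSMUSG00000119584 as a covariate. They became 1084 with DESeq2, 964 with only the groups compared, 224 with the outside share as a covariate, 23 with a minimum fold of 1.2 and 21 without L266 and L303. Of the called genes 47.1% were higher, and 14.9% with library size alone, 38.1% without L266 and L303, and 26.1% with the minimum fold. Leaving out a library gave 52 to 744 genes. In F, 321 genes became 737 with DESeq2, 28 with only the groups compared, 180 with the outside share as a covariate and 4 with the minimum fold, and leaving out a library gave 91 to 868; 39.9% were higher, and 52.9% with library size alone. The difference between letters had 1 gene, and 0 with RLE scaling, without L266 and L303, with either covariate and with the minimum fold, 67 with library size alone, 168 with DESeq2 and 14 without a filter; leaving out a library gave 0 to 111. Of the ribosomal protein genes 32 were called, 14 with library size alone, 18 with only the groups compared, 14 with the outside share as a covariate and 0 without L266 and L303, and leaving out a library gave 1 to 39. Of the mitochondrial DNA genes 6 were called, 0 without L266 and L303, and leaving out a library gave 3 to 8. Of 78 genes named with a test, 14 kept their side of the threshold without L266 and L303, 45 with the outside share as a covariate, and 25 without L303; none changed direction in any fit. The cause of these changes was not tested. The fits that leave libraries out also hold fewer samples, and the part of that was not tested either. No paired analysis was possible because no sample number is shared between groups. The number of wild-type samples, 3, limits the precision.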
